A study of Zea mays with 6 samples.

Results

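Protein disulfide isomerases are thioredoxin-like enzymes of the endoplasmic reticulum, where they make, break and rearrange the disulfide bonds of newly made secretory and membrane proteins. They work beside the chaperone BiP and the lectin chaperones calnexin and calreticulin. Derlins are membrane proteins of the same compartment that help to move misfolded proteins back to the cytosol for degradation by the proteasome. Genes of both kinds are known as targets of the unfolded protein response, which plants use when folding demand exceeds capacity. Protein disulfide isomerases are best known in cereals for the seed, where storage proteins are folded in the reticulum, but leaves also use them for the proteins of the cell surface and vacuole.

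The genes described here were 5 protein disulfide isomerase genes, pdi, pdi3, pdi4, pdi6 and pdi8, and the derlin gene DER1.1, 6 of the 1108 maize genes that could be named on the array. They were found by symbol or RefSeq synonym and were represented by 9 of 17555 probe sets. They were selected on their log2 difference between the leaf sections in these same arrays, so that difference is given below as a description without a p-value. The RefSeq table lists pdi as PDIL1-1, pdi3 as PDIL1-3, pdi4 as PDIL1-4, pdi6 as PDIL2-1 and pdi8 as PDIL2-3. The derlin gene also carries the name derlin-3 there.

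Total RNA came from leaf 3 of the maize inbred line A661, which spent 3 weeks at 15 °C and 1 more week at 25 °C, in days of 14 h light and 10 h dark. In each of 3 biological replicates the leaf tip side lacked chlorophyll (CL, the distal section) and the base side held it (CC, the proximal section and the control), and the 2 cm of either that lay nearest to their border were taken. All 6 arrays therefore share the line and both temperature periods, and chlorophyll content cannot be told apart from position along the leaf. The labels do not say whether a replicate was 1 plant or a pool. Values are log2 expression values after RMA, which adjusts for background, gives the probes of all arrays the same distribution and combines each set's probes. The combined values did not share 1 distribution: their 25th percentiles were 3.95 to 3.97 in CL and 4.04 to 4.15 in CC. Array medians lay between 6.29 and 6.36, and arrays of a section correlated at 0.989 to 0.995 over probe sets against 0.963 to 0.982 between sections. Precision is limited by how few arrays there are.

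All 6 genes had higher mean values in CL than in CC, with log2 differences from 0.40 to 0.995 and a median of 0.65, against a median of -0.08 over the 1108 named genes. The 3 CL arrays lay above the 3 CC arrays in 6 of 6 genes, a state found in 23.7% of named genes. In the limma fit over all probe sets 5 of the 6 were past an adjusted p of 0.05 in the upward direction and 0 in the downward one, where 18.7% of named genes were past it upward and 19.9% downward. Because this contrast chose the genes, nothing is read from these counts. In bulk leaf tissue, a larger share of cells that express a gene and more of its RNA per cell cannot be told apart.

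**Figure D1:**
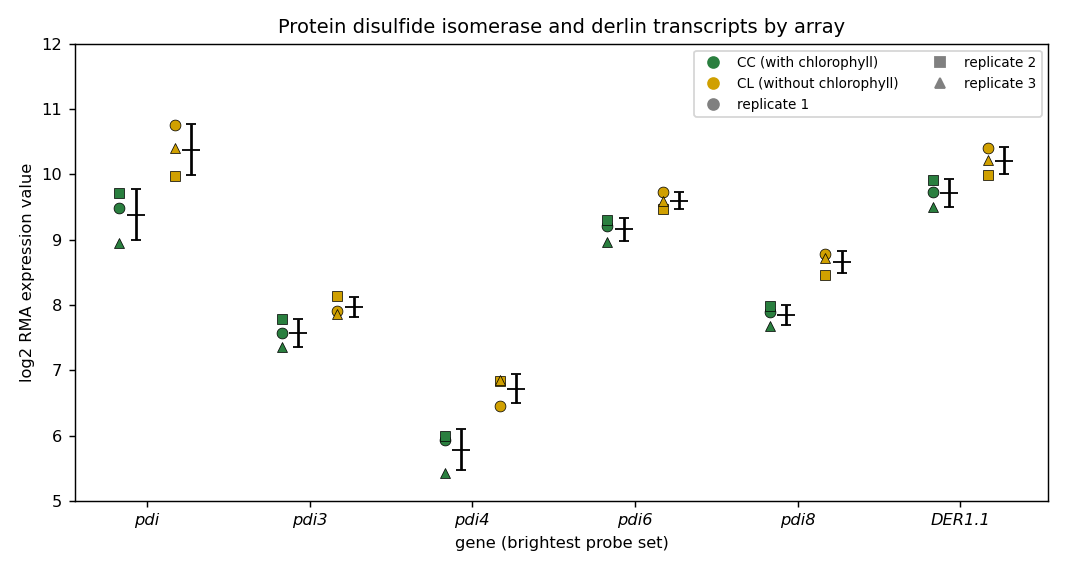
Log2 RMA expression value (y axis) of the brightest probe set of each gene (x axis) on the 3 CC arrays (green) and the 3 CL arrays (yellow), with marker shape for the replicate number; the dash and bars beside each group are its mean and SD. Each CL group lies above its CC group, by a gap of 0.08 in DER1.1 and pdi3 and of 0.48 in pdi8.

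The gene pdi, the classical member of the family, had the largest difference among the brightest probe sets of the 6. It read 10.76, 9.98 and 10.40 in CL replicates 1 to 3 and 9.49, 9.72 and 8.95 in the CC replicates. CL replicate 2 and CC replicate 2 stood closest together, 0.26 apart, while CL replicate 1 and CC replicate 3 were the extremes. The CL mean was 10.38 ± 0.39 and the CC mean 9.39 ± 0.40 (SD, 3 arrays each), a log2 difference of 0.995 (moderated SE 0.25) or 1.99-fold. Within either section pdi therefore spread by 0.78 and 0.77, close to the size of its difference, and leaving out CC replicate 3 brought it to 0.78, leaving out CL replicate 2 to 1.19.

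The other chosen genes of the first subfamily, pdi3 and pdi4, carry several probe sets each, which belong to 1 sequence cluster of the array by their identifiers. The brightest probe set of pdi3 read 7.91, 8.14 and 7.86 in CL and 7.56, 7.78 and 7.36 in CC. The groups did not overlap, but CL replicate 3 lay only 0.08 above CC replicate 2. The log2 difference was 0.40 (SE 0.13), the smallest of the 6 and the 1 that was not past the threshold, and it was 0.22 with array weights. On its other probe set, at 6.40, 6.08 and 6.07 in CL and 5.79, 6.15 and 5.61 in CC, the sections overlapped through CC replicate 2, with a log2 difference of 0.34 (SE 0.16).

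Of the 3 probe sets of pdi4, 2 showed a clear difference and the third lay at the dim end. The brightest, whose identifier ends in x_at, read 6.46, 6.83 and 6.85 in CL and 5.94, 5.99 and 5.43 in CC, a log2 difference of 0.93 (SE 0.18). That ending marks a probe set with probes that can also match other transcripts. The probe set of the same target without that mark read 6.15, 6.29 and 6.49 in CL and 5.44, 5.35 and 4.85 in CC, a log2 difference of 1.098 (SE 0.17). Both therefore placed every CL array above every CC array. The remaining probe set, A1_at, ranged from 2.86 to 3.24 over all 6 arrays with a log2 difference of 0.09 (SE 0.13), and its mean of 3.10 lay below the 25th percentile of every array, which was 3.95 to 4.15. The mean of the 3 probe sets gave pdi4 a log2 difference of 0.71, and that of the 2 probe sets of pdi3 was 0.37. Taken over the 9 probe sets of the 6 genes, all 9 were higher on average in CL, 7 did not overlap between sections (22.9% of all probe sets did so with CL higher) and 6 were past the threshold upward (15.9% of all probe sets).

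**Figure D2:**
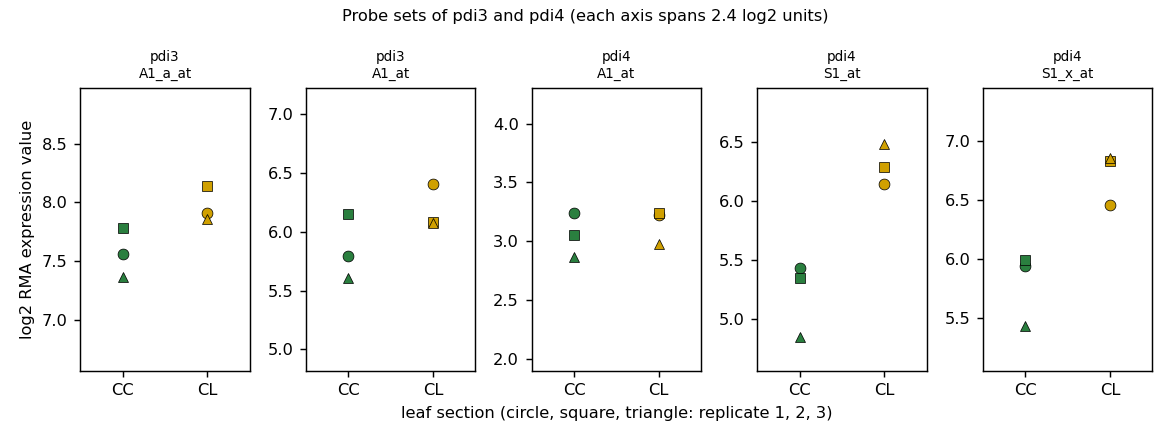
Log2 RMA expression value (y axes, each spanning the same number of log2 units around its own middle) of the 2 probe sets of pdi3 and the 3 of pdi4 in CC and CL (x axes), with 1 point per array. The A1_at probe set of pdi4, at 2.86 to 3.24, shows overlapping sections, while the other 2 probe sets of pdi4 show separate ones.

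The chosen genes of the second subfamily were pdi6 and pdi8, with 1 probe set each, while its member pdi7 was not among the chosen genes. The gene pdi8 belongs to the P5 type, whose rice counterpart PDIL2;3 acts on cysteine-rich prolamins of the seed. It read 8.78, 8.47 and 8.72 in CL and 7.89, 7.98 and 7.68 in CC. These groups were the most widely separated of the 6 genes, with 0.48 between the lowest CL and the highest CC array and SDs of 0.17 and 0.16. The log2 difference was 0.80 (SE 0.12), or 1.75-fold. The gene pdi6 read 9.73, 9.47 and 9.60 in CL and 9.21, 9.31 and 8.97 in CC, a log2 difference of 0.43 (SE 0.12) or 1.35-fold. Its sections were 0.16 apart at CL replicate 2 and CC replicate 2.

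The derlin gene DER1.1 read 10.41, 10.00 and 10.22 in CL and 9.73, 9.92 and 9.50 in CC. The sections did not overlap but came within 0.08 of each other, again at replicate 2 of either section. The log2 difference was 0.49 (SE 0.15), or 1.41-fold, with SDs of 0.21 in both sections.

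The order of the arrays inside a section does not use the difference between sections. In CC, replicate 2 was highest and replicate 3 lowest on the brightest probe set of all 6 genes, while the other 2 probe sets of pdi4 were highest in CC replicate 1. In CL, replicate 1 was highest and replicate 2 lowest in 4 of them (pdi, pdi6, pdi8 and DER1.1), while pdi3 was highest in CL replicate 2 and pdi4 in CL replicate 3. That CC order was found in 14.0% and that CL order in 28.1% of the 1108 named genes. Both occurred together in 4 of the 6 genes and in 6.32% of named genes. The order was noticed in the values and has no test. Averaged over the 6 genes after subtracting each gene's mean, the CL arrays stood at 0.42, 0.23 and 0.36 and the CC arrays at -0.28, -0.13 and -0.60 for replicates 1 to 3.

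Other genes of folding, quality control and protein entry in the reticulum were taken from a list matched by symbol, which held 18 genes besides the 6. By limma, 7 of these rose in CL and 0 fell past an adjusted p of 0.05 (7 and 0 at an unadjusted p under 0.05). Of all named genes 18.7% rose and 19.9% fell, and 38.6% passed in either direction. The 7 rises became 2 without CL replicate 3, 4 without CL replicate 1 or CC replicate 3, and 1 with the replicate number as a block. The letters SRP also matched 4 genes that encode splicing factors of the SR type by name. Without them 7 of 14 genes rose, and the median log2 difference of the 14 was 0.29 against -0.08 over all named genes. Since the 6 genes above were taken out of the same families with their difference known, the remainder is not an unselected sample.

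The rises were led by the chaperones that hold unfolded proteins. The BiP gene bip1 read 9.33, 8.46 and 9.09 in CL and 7.996, 8.30 and 7.42 in CC, a rise of 1.06 (SE 0.29, limma adjusted p = 0.0315). Its sections did not overlap, although CL replicate 2 lay near CC replicate 2, as in pdi. The second BiP gene, bip2, rose by 1.01 (SE 0.28, adjusted p = 0.0357), with 10.97, 10.20 and 10.64 in CL and 9.70, 10.03 and 9.06 in CC. Both calls rest on few arrays: without CL replicate 1, CL replicate 3, CC replicate 1 or CC replicate 3 the adjusted p of bip1 was 0.0770, 0.102, 0.0520 and 0.0780, and that of bip2 was 0.0864, 0.104, 0.0561 and 0.0764.

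The calreticulin gene crt2, which encodes a soluble lectin chaperone, rose to 10.45 ± 0.27 in CL against 9.50 ± 0.39 in CC (SD over 3 arrays; log2 difference 0.95, limma adjusted p = 0.0183), and its other probe set by 1.12. The calnexin gene CNX, for the membrane-bound counterpart, rose from 10.14 ± 0.20 to 10.88 ± 0.21 (log2 difference 0.74, adjusted p = 0.0116), and all 4 of its probe sets passed upward, by 0.44 to 0.75. Without CL replicate 3 the adjusted p was 0.0703 for crt2 and 0.0523 for CNX. The genes crt2, bip1 and bip2 had the same order of arrays in both sections as pdi, pdi6, pdi8 and DER1.1. So did PDIL5-1, which did not pass and had a log2 difference of -0.21, so the order was not limited to genes that rose. CNX shared only the CL order.

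Genes for entry into the reticulum and for its degradation branch gave smaller log2 differences than the BiP, calreticulin and calnexin genes. DER2.1, a second derlin gene, rose by 0.43 (SE 0.08, limma adjusted p = 0.0103), with 7.15, 7.002 and 7.02 in CL and 6.64, 6.63 and 6.61 in CC, whereas DER2.2 had a log2 difference of -0.18 (95% interval -0.41 to 0.04) and did not pass. The gene dad1, for a subunit of the oligosaccharyltransferase that attaches N-glycans, rose by 0.36 (SE 0.10, adjusted p = 0.0331), and its call was lost without any single array other than CC replicate 1 (adjusted p 0.0609 to 0.118) and under both other scalings (0.0547 and 0.0549). SRP9, for a protein of the signal recognition particle, rose by 0.63 on its brighter probe set (adjusted p = 0.00719), but its dimmer probe set had a log2 difference of -0.26 and did not pass. The calls of SRP9 and DER2.1 held with any single array left out, but a replicate block gave adjusted p of 0.0508 and 0.0631, and the mean of both SRP9 probe sets gave 0.18 (adjusted p = 0.101).

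**Figure D3:**
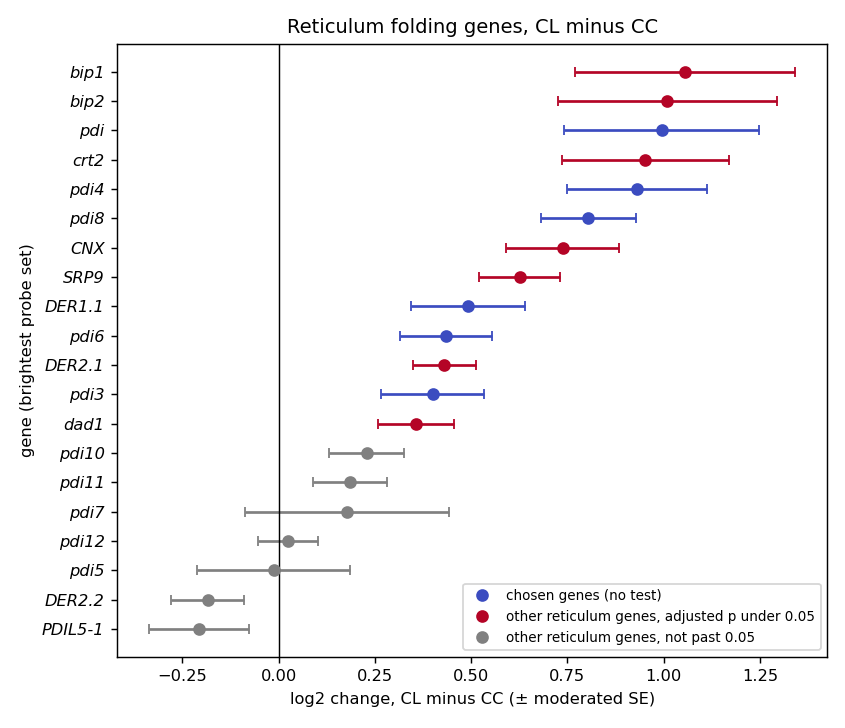
Log2 difference, CL minus CC, with its moderated SE (x axis) for the brightest probe set of the 6 chosen genes (blue) and of the 14 other reticulum genes checked by name (red where the adjusted p was under 0.05, grey where not), ordered by size. The chosen genes lie between 0.40 and 0.995, within the range of the 7 red ones at 0.36 to 1.06, and the other protein disulfide isomerases lie between -0.21 and 0.23.

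The rest of the protein disulfide isomerase family on the array gave 0 calls in the limma fit among 6 genes, in either direction, and 0 at an unadjusted p under 0.05. The gene pdi10 passed upward in 2 other settings, with array weights (adjusted p = 0.0460) and without CC replicate 1 (0.0495). The largest of their log2 differences was that of pdi10, at 0.23 (95% interval -0.0011 to 0.46), with all CL arrays at 6.89 or above and all CC arrays at 6.88 or below, just short of overlapping. The genes pdi11 (0.19) and pdi7 (0.18), the latter PDIL2-2 by its other name and so of the same subfamily as pdi6 and pdi8, did not pass either. The second probe set of pdi7 had a log2 difference of -0.26, so its probe sets differed in sign. The genes pdi12 (0.02) and pdi5 (-0.01) were closest to 0, the last with both section means near 4 at the dim end of the arrays. PDIL5-1, whose barley counterpart is a host factor of bymoviruses, had a log2 difference of -0.21 (95% interval -0.51 to 0.10). Of the 11 protein disulfide isomerase genes on the array, the 5 chosen ones therefore span 0.40 to 0.995 and the other 6 span -0.21 to 0.23. This split follows from the choice and has no test. Of the unchosen genes only pdi7, on its brightest probe set, had an interval (-0.45 to 0.81) that reached the difference of pdi8. The upper limits of pdi10, pdi5, pdi11, pdi12 and PDIL5-1 were 0.46 or below.

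**Figure D4:**
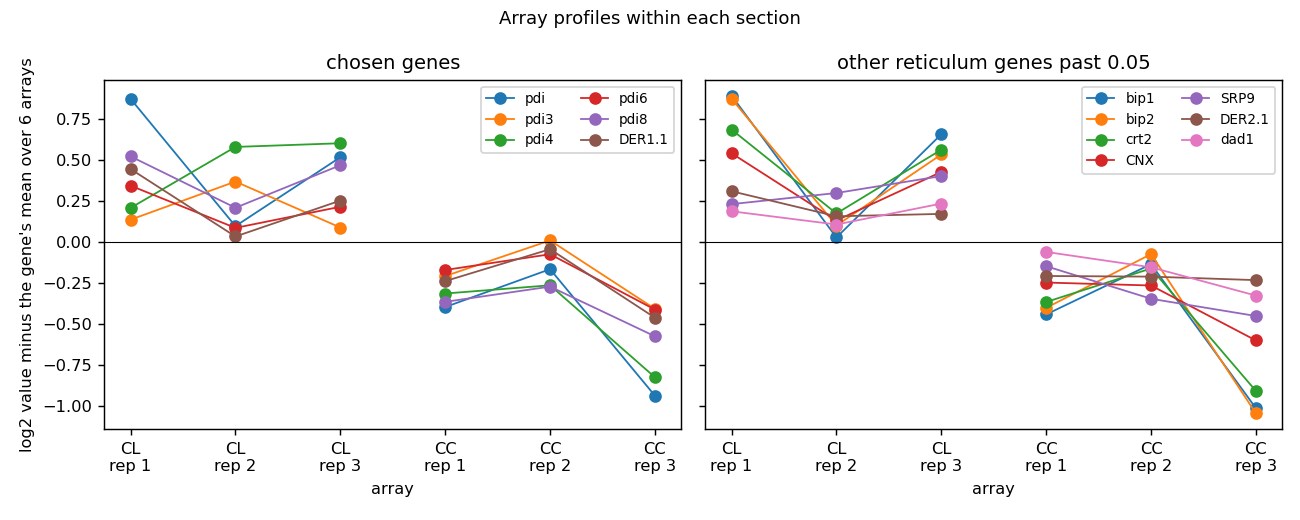
Log2 value minus the gene's own mean over the 6 arrays (y axis) for each array (x axis), for the 6 chosen genes (left) and the 7 other reticulum genes past the threshold (right); lines join the values of 1 gene within a section and imply no order of replicates. CC replicate 3 is the lowest CC array in all 6 chosen genes and in 7 of the 7 others, by little in DER2.1. It is also the lowest in 13 of the 14 reticulum genes checked by name, passed or not, and in 32.9% of all named genes.

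By root mean square distance between array profiles after each gene's mean was subtracted, the 5 genes with an informative name that lay nearest to the mean profile of the 6 were dnp2 (0.08), the D-type cyclin gene cycD2 (0.08), cal2 (0.09), CNX (0.09) and the alternative oxidase gene aox1 with NCBI gene 542073 (0.10). The distance is in log2 units over 6 arrays and 972 genes were ranked. The chosen genes themselves lay at 0.09 (pdi8) to 0.25 (pdi). The difference between sections makes up most of each profile, so this likeness is a description.

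Among all named genes 18.7% rose and 19.9% fell, and the lists below are set beside these shares. A list of chaperones outside the reticulum, matched by symbol, also held a heat shock factor and prohibitins. Of its 15 genes 9 rose and 0 fell, with a median log2 difference of 0.69. The largest rises were those of the mitochondrial chaperonin gene CPN60II at 1.96 and the small heat shock gene hsp22 at 1.84, both beyond any of the chosen genes. The prohibitin genes phb1, phb2 and phb4 and the heat shock factor gene hsfb were also among the rises. The prohibitin gene phb3 (0.26), hsp101 and the genes named hsp18 did not pass, hsp18c with a log2 difference of -0.26. Of 14 ribosomal protein genes 11 rose and 0 fell, with a median of 0.42, led by RPL19 at 1.09 and rpl30 at 1.07, and L29, arpp2b and RPS10 did not pass. Rises in CL were thus also found among genes that act outside the reticulum.

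The lists for vesicle traffic and thiol enzymes, as matched by symbol, had calls at about the share of all named genes, 38.6% in either direction, so their counts are no result about these groups. Of 7 genes matched to secretory traffic 1 rose and 2 fell, with a median of -0.19. The small GTPase genes arf1 (-0.51) and yptm3 (-0.49) fell, and copz2, for a coatomer subunit, rose by 0.35. Checked by name, this list kept 6 genes with the same calls. Of 8 genes matched to thiol redox proteins 1 rose and 2 fell, the falls being the thioredoxin gene trxh1 (-0.45) and PER2 (-0.98). PER2 is a peroxidase by name, as are PER1, PER42 and PER66. Without them 4 genes remained, of which 1 rose and 1 fell. The gene that rose was gor1, a glutathione reductase, by 0.33. Of 3 genes matched to the ubiquitin and proteasome list 0 passed in the limma fit (0 at an unadjusted p under 0.05), and ubc7, at 0.05, is the 1 that belongs there by name, so the step that follows the derlins is hardly covered.

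Zeins, the seed storage proteins folded in the reticulum, are clients of these enzymes in the endosperm. Of 10 genes matched to the zein list 0 rose and 1 fell at the limma threshold (0 and 3 at an unadjusted p under 0.05). Checked by name, the list kept 8 genes with the same counts. The fall was that of FL1, for a membrane protein of the zein bodies, which read 9.13 ± 0.17 in CL against 10.06 ± 0.21 in CC (SD over 3 arrays; limma adjusted p = 0.00502). The 5 genes with a name of the z1 alpha-zein family had section means between 2.04 and 3.45, at the dim end in both sections.

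**Figure D5:**
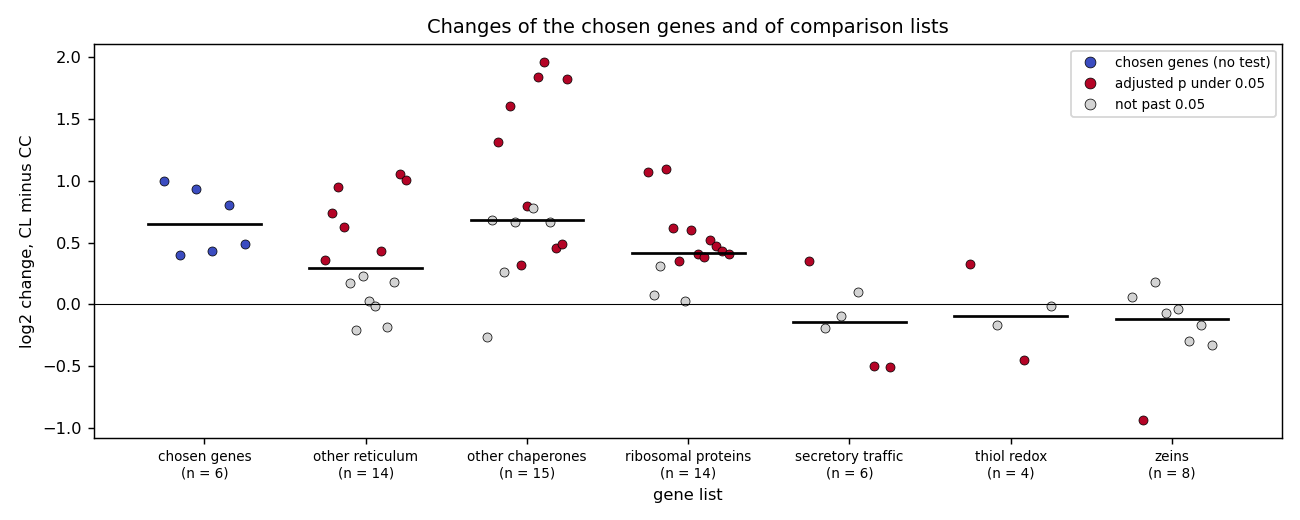
Log2 difference, CL minus CC (y axis), of each gene in the chosen set and in 6 lists checked by name (x axis), with blue for the chosen genes, red for an adjusted p under 0.05 and grey for the rest; black bars are medians. The medians are 0.65 for the chosen genes, 0.29 for the other reticulum genes, 0.69 for other chaperones and 0.42 for ribosomal proteins. The list of other chaperones includes a heat shock factor and prohibitins.

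Markers of leaf cell types were checked beside these results. The main leaf markers were bright in both sections, for example the phosphoenolpyruvate carboxylase gene pep1 of mesophyll at 13.27 in CL and 13.22 in CC. Of 4 vascular markers 3 fell and 0 rose in CL, and their summed linear level was 829 to 1346 in CL and 1488 to 2131 in CC. That sum rests mostly on sut1, with means of 9.91 in CL and 10.78 in CC. The means of cesa10, CesA12 and cesa11 were 3.27, 3.25 and 4.43 in CL and 4.13, 4.09 and 5.30 in CC, at or near the dim end. Of 4 markers of dividing cells 2 rose and 0 fell, with sums of 446 to 499 in CL and 340 to 373 in CC, although cycD1 had a log2 difference of -0.50 with all CL arrays below all CC arrays and did not pass. Of 5 genes matched to mesophyll markers 2 rose and 0 fell (sums of 27055 to 27478 and 26123 to 26740). The rises were those of MZPPT1 (0.75) and PDK1 (0.56). PDK1 was matched with case ignored and is a different gene from C4ppdkZm1, so whether it marks mesophyll is not known. The brighter pep1, mdh6 and C4ppdkZm1, which make up most of the sums, had log2 differences of 0.05, -0.05 and 0.05 and did not pass. Of 3 bundle sheath markers 0 rose and 1 fell (19967 to 20343 and 21064 to 21735). Of 3 epidermis and wax markers 0 rose and 2 fell, with overlapping sums. The falls were those of gl1 (-1.73) and EREB55 (-0.33), the latter at the dim end with means of 3.18 in CL and 3.50 in CC. RMA values have no true 0, so no marker could be called absent. The part of these shifts in the differences of pdi, pdi3, pdi4, pdi6, pdi8 and DER1.1 was not tested.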

How the data were processed

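The authors deposited RMA expression values on a log2 scale for 6 single-colour Affymetrix maize arrays. The submitters' processing notes name RMA, limma and Affymetrix Expression Console, with no version. The table held 17555 probe sets with 0 missing values, and 0 columns of sample values went unused. No probe could be tested against background.

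Genes were named through an older platform annotation and synonyms from the RefSeq table of assembly Zm-B73-REFERENCE-NAM-5.0: 1452 probe sets had 1 gene, 1 had several and 16102 had none named here, giving 1108 genes, 1060 of them in that table. Each gene was read from its brightest probe set (highest mean over the arrays). No sequence table was used.

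Samples were grouped by leaf section. The limma model (limma 3.58.1, R 4.3.3) was fitted without a block to all probe sets, CL minus CC, with Benjamini-Hochberg adjustment over all of them and a threshold of 0.05. Single genes in 3 against 3 arrays carry no permutation test here. The fit was tested on simulated data. Arrays of a section differed by an SD of 0.251 to 0.387 (log2), so none was a duplicate.

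The members and lists were chosen with earlier results of these data known. Named were all members, reticulum genes past the threshold, the 2 largest calls of each comparison list and the 5 nearest profiles; other family members, copz2, gor1, ubc7 and pep1 were named after their values were seen.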

Additional observations from a re-analysis of the deposited data

How the results depend on the processing

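The log2 differences of pdi, pdi3, pdi4, pdi6, pdi8 and DER1.1 stayed positive in 104 of 104 recomputed values, including their median (0.49 to 0.73). Each moved by less than 1 SD between replicates, pooled over both sections. Many of these values could not move. A replicate block, other variance settings of limma and the filters on dim probe sets leave each gene's difference unchanged. So does the mean of probe sets for genes with 1 probe set, and the count of 104 is no measure of stability. The largest drop in proportion was that of pdi3, from 0.40 to 0.22 with array weights, and pdi4 has no value without the dimmest 50% of probe sets. The array weights were 5.38 for CL replicate 3 against 0.53 and 0.61 for CL replicates 1 and 2, so the weighted CL values rest mostly on 1 array. Both other scalings (array medians, a further quantile normalization) kept all 6 positive and turned 0 called probe sets. Counts depended more on the settings. With 2789 probe sets higher and 2668 lower in the main setting, a replicate block gave 1020 and 850, an adjusted p of 0.01 gave 1126 and 867, array weights gave 4388 and 4940, and leaving out the dimmest 50% gave 1656 lower; leaving out 1 array gave 1308 to 2818 higher and 1082 to 2865 lower, lowest without CL replicate 3. Of the 18 other reticulum genes, 7 rose in the main setting, 1 (CNX) under the replicate block and 1 at an adjusted p of 0.01; leaving out 1 array gave 2 to 6 rises and 0 falls, with 4 without CL replicate 1 or CC replicate 3 and 2 without CL replicate 3, and the list checked by name, an alternative chosen after seeing the data, gave 7. Same-numbered arrays did not deviate together from their section means (correlations of -0.54, -0.35 and -0.39 for replicates 1 to 3) and 0 of 6 correlated best with its own number, and the labels do not say whether equal numbers share plants, so the fit without the block was kept as the main one and whether the numbers pair the arrays is not known. Signs turned only among uncalled genes: pdi7 at -0.040 with the mean of its probe sets, pdi12 at -0.020 with median centring, -0.066 with quantile normalization and -0.017 with array weights, and pdi5 at 0.11 with quantile normalization and 0.074 with array weights; with 1 array left out pdi7 ranged from -0.12 to 0.41 and pdi5 from -0.21 to 0.16. SRP9 with the mean of its probe sets was 0.18 (adjusted p = 0.101). The cause was not tested.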
